A study of Homo sapiens with 2 samples.

Results

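MIR17HG, the host transcript of the microRNA cluster that holds miR-19b, was examined together with the MYC-MAX network of transcription factors in the human hepatocellular carcinoma cell line Hep3B. The 10 genes (MIR17HG, MYC, MYCN, MYCL, MAX, MNT, MXD1, MXD3, MXD4 and MYCBP) were chosen by name. They are the host transcript, MYC, which is known to drive it, and other genes of the MYC-MAX network. They were selected on this comparison with the array values already known. Every probe with a single gene symbol among these names was taken, which gave 18 probes for 10 genes, out of 29187 probes and 18821 named genes on the array. One array read the RNA of Hep3B cells that had been given an inhibitor of miR-19b (anti-miR-19b), and the other that of Hep3B cells given the control, whose sequence and kind are not stated in the labels or methods. Both cultures received 90 pmol of inhibitor or control per well with a lipid reagent, and RNA was collected after 24 h. Hep3B is 1 cell line, and the data hold 1 array per condition with no replicate. No test could therefore be made here, and every value below describes these 2 arrays.

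MYC is a transcription factor that binds DNA as a dimer with MAX, at a short palindromic element known as the E-box. MXD1, MXD3, MXD4 and MNT also pair with MAX, occupy the same elements and recruit the SIN3 corepressor, so that MAX is shared between an activating and a repressing arm. MYC is known to activate transcription of the miR-17-92 cluster from MIR17HG, and microRNAs of the cluster act in turn on E2F factors and on regulators of cell death. In liver cancer MYC is a frequent oncogene, and the cluster is one of its best known noncoding targets.

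The mature microRNAs of the cluster are shown because the inhibitor was directed at one of them while the array probe reads the transcript that carries them all. MIR17HG holds 6 hairpins within 787 bases, the first of which starts 2918 bases after the annotated start of the gene on chromosome 13. They are annotated with 12 mature sequences. The main strand of each hairpin is printed 5′ to 3′ in order along the transcript, as RefSeq gives it (GRCh38.p14, plus strand), with the seed (bases 2 to 8) in capitals.
hsa-miR-17-5p: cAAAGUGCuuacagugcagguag
hsa-miR-18a-5p: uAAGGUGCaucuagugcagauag
hsa-miR-19a-3p: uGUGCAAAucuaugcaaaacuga
hsa-miR-20a-5p: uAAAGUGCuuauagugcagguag
hsa-miR-19b-3p: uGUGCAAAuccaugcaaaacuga
hsa-miR-92a-3p: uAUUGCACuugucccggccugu

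The seed GUGCAAA was shared by miR-19a-3p and miR-19b-3p, and the seed AAAGUGC by miR-17-5p and miR-20a-5p. miR-19a-3p and miR-19b-3p differed at a single base outside the seed, U11C (the base of miR-19a first, position from the 5′ end, then the base of miR-19b). The mature miR-19b-3p is annotated at 2 loci, in MIR19B1 within MIR17HG and in MIR19B2 on chromosome X, and miR-92a-3p likewise at 2. The remaining 10 of the 12 mature sequences were annotated at 1 locus each. An mRNA array reads none of these mature forms, and the level of miR-19b itself was not measured here. The hairpin of miR-19b-1 (chr13:91351192-91351278) is given with the mature miR-19b-3p in capitals, to show that it lies in the 3′ arm.
MIR19B1 hairpin: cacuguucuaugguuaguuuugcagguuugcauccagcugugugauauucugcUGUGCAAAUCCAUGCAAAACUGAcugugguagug

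**Figure D1:**
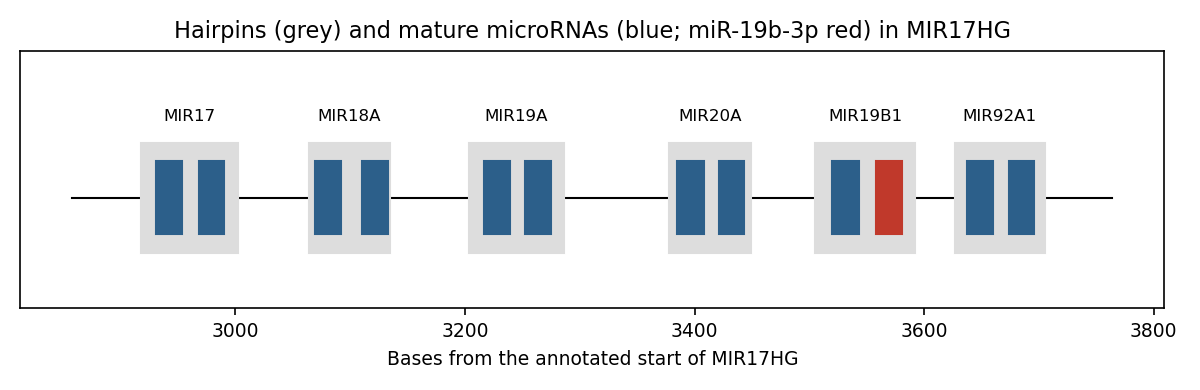
Positions of the 6 hairpins (grey) and 12 mature microRNAs (blue, with miR-19b-3p in red) of MIR17HG, in bases from the annotated start of the gene, drawn to scale. The hairpins follow each other within 787 bases, and that of miR-19b is the fifth.

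The values are intensities on a linear scale as the authors normalized them. The median intensity was 28.1 with anti-miR-19b and 26.05 in control cells, and 26186 probes were above 0 on both. The log2 ratio sets anti-miR-19b cells over control cells, so that a positive value means a higher signal with anti-miR-19b. The study's limit of 1.5-fold is 0.58 on this scale. The study's list of suppressed genes also gave a P-value for each gene, and how it was obtained is not stated. It was not used here, so that counts by fold alone are not the study's counts. The log2 ratios of that list differ somewhat from those computed here, among them those of NDRG1 and BCL2L11. A probe was called bright when the mean of its log2 intensities was at or above the median of all probes, an intensity of 41.4, and dim otherwise. A probe was marked as near the floor when either intensity was at or below 5.06, the size that 95% of the 3464 values below 0 did not exceed. Intensities of different probes depend on the probe, so that levels are compared only within a probe. Over all probes the median log2 ratio was 0.03. Of the 9 liver markers examined, 8 had a named probe, and each was bright on its brightest probe, among them AFP (1371 in control and 1783 in anti-miR-19b cells) and ALB (14382 and 15550). Of the 4 leukocyte markers 3 had a named probe, and PTPRC and CD3E were dim while CD14 was bright (135 and 118). Of the 5 fibroblast and endothelial markers 2 were bright on both arrays, COL1A1 (61.4 and 56.6) and CDH5 (60.9 and 59.0), and 3 were not.

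MIR17HG was the bright member with the highest ratio. Its single probe read 434 in control cells and 763 in anti-miR-19b cells, a ratio of 1.76 (0.81 on the log2 scale). Among the 13093 bright probes, 72 (0.550%) had a ratio at or above this one. In the band of probes of like level (an intensity of 344 to 1031, 2619 probes), 1.18% were over 1.5-fold higher and 0.344% over 1.5-fold lower. MIR17HG was over 1.5-fold higher also after quantile normalization, after centring, after the loess trend with level was taken out and with 50 added to every intensity, where its log2 ratio lay between 0.75 and 0.80. RNA of a whole culture was read. A change in the number of cells with a transcript and a change of it per cell cannot be told apart, here or below. The annotation places the hairpins inside this gene, and the place of the probe along the transcript was not used here.

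MYC, the factor known to drive MIR17HG, also had 1 probe. It gave 126 in control and 189 in anti-miR-19b cells, for a log2 ratio of 0.58. The value was 0.0024 log2 units short of 1.5-fold, which placed MYC within the limit. The error of this margin cannot be estimated with 1 array per condition. Of the bright probes, 328 (2.51%) had a ratio at or above that of MYC. In its band of level (78.8 to 156, 2619 probes) 2.90% of the probes were over 1.5-fold higher, and the spread of the ratio, taken as the distance from percentile 16 to 84 divided by 2, was 0.27. MYC and MIR17HG were therefore the members with the highest ratios at bright probes, and both were higher in anti-miR-19b cells, each at 1 probe.

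The paralogs MYCN and MYCL gave no signal of that kind. The MYCN probe was below 0 on both arrays (-0.80 in control and -2.06 in anti-miR-19b cells), so that it has no ratio. MYCL was read by 2 dim probes, at 29.2 and 37.97 (log2 ratio 0.38) and at 19.8 and 19.6 (-0.01) on the control and anti-miR-19b arrays. Thus the first MYCL probe was somewhat higher with anti-miR-19b and the second was level between the arrays. In the bands of level of these probes the spread of the ratio was 0.54 and 0.53, larger than either value.

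MAX, the common partner of the network, was read by 3 bright probes. The brightest had 2205 in control and 2006 in anti-miR-19b cells (log2 ratio -0.14), the next 1120 and 1075 (-0.06), and the last 96.8 and 111 (0.19). The probes thus lay on both sides of 0, at most 0.19 away from it, and all were within 1.5-fold. Their mean was -0.000023 log2 units. The spread of the ratio in the bands of level of these probes was 0.21 for the first and second and 0.27 for the last. The gene span of MAX overlaps 4 other annotated genes in RefSeq, and which strand or transcript each probe reads was not used here.

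The MAX partners that oppose MYC showed no common direction at bright probes. MNT, a widely expressed repressor, had 886 in control and 797 in anti-miR-19b cells (log2 ratio -0.15) at its 1 probe. MXD1, known for its induction when cells leave the cycle and differentiate, had 228 and 176 at its bright probe (log2 ratio -0.37), and 681 of the bright probes (5.201%) had a ratio at or below this. MXD3, which is known to be expressed in cycling cells, had 76.9 in control and 88.1 in anti-miR-19b cells at its bright probe (log2 ratio 0.20). Hence MNT and MXD1 were lower and MXD3 was higher with anti-miR-19b, all within 1.5-fold. MXD4 was read by 2 bright probes, at 49.2 and 62.4 (log2 ratio 0.34) and at 42.1 and 51.9 (0.30). These were the only 2 bright probes of 1 member other than MAX, and they differed by 0.043 log2 units. Both were just above the median level, in a band (41.4 to 78.8) where the spread of the ratio was 0.33. Taking the mean of bright probes, the log2 ratios of MNT and the MXD genes ran from -0.37 to 0.32, with 2 genes above 0, 2 below and none over 1.5-fold.

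At dim probes the MXD genes gave far larger ratios that did not hold within a gene. One MXD1 probe had 5.89 in control and 0.369 in anti-miR-19b cells, a log2 ratio of -4.00 near the floor, while another dim probe gave 10.3 and 12.6 (0.29). One MXD3 probe near the floor had 7.90 and 2.002 (log2 ratio -1.98), and another had 5.69 and 10.4 (0.87). The probes of MXD1 thus covered 4.29 log2 units and those of MXD3 2.85, with values on both sides of 0 in each gene. In the lowest band of level (up to an intensity of 3.56), 40.6% of all probes were over 1.5-fold higher and 39.95% over 1.5-fold lower. In the band of the MXD3 probe near the floor these shares were 28.9% and 31.9%. The mean over all probes, -1.36 for MXD1 and -0.30 for MXD3, therefore rests on intensities near the floor, and at bright probes it was -0.37 and 0.20.

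MYCBP, which encodes a small protein that binds the amino-terminal part of MYC, had the ratio farthest from 0 among the bright member probes. Its single probe had 141 in control and 12.9 in anti-miR-19b cells, 10.9 times lower with anti-miR-19b (log2 ratio -3.45). Only 9 of the 13093 bright probes (0.0687%) had a ratio at or below this one. The anti-miR-19b intensity lay below the median level of 41.4 and above the floor of 5.06, and with an offset of 50 the log2 ratio was -1.60. In its band of level, 3.06% of the probes were over 1.5-fold lower. No second MYCBP probe was on the array to set beside it, and RefSeq annotates 2 genes that overlap it, GJA9-MYCBP and RRAGC-DT. MYCBP is not among the genes that the study listed as suppressed. Whether the value belongs to the gene or to this spot on one array was not tested.

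**Figure D2:**
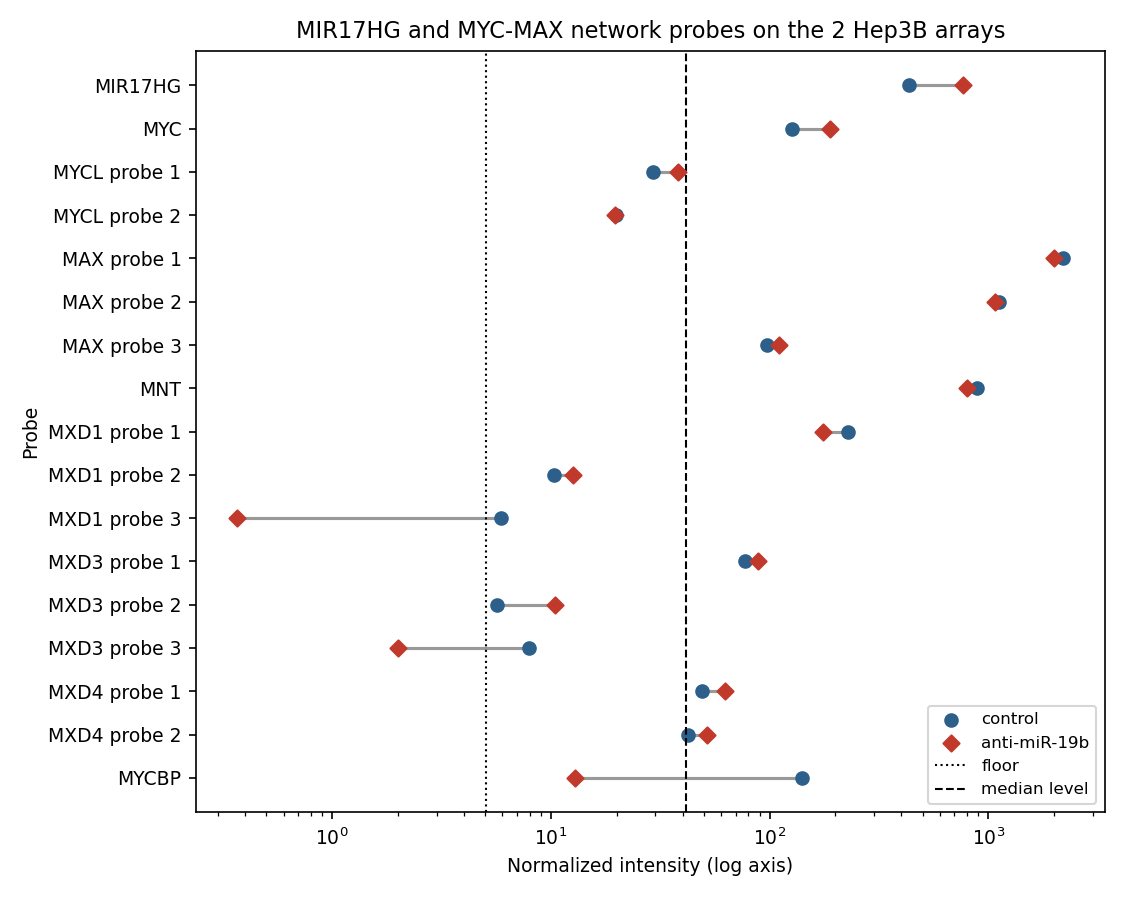
Normalized intensity (log axis) of the 17 member probes above 0 on both arrays, with control as blue circles and anti-miR-19b as red diamonds, 1 array each. Dotted and dashed lines mark the floor (5.06) and the median level (41.4). The longest distances belong to MYCBP and to the MXD1 and MXD3 probes at the floor, while MIR17HG (434 to 763) and MYC (126 to 189) are the clearest shifts to the right among bright probes, and MYCN, below 0 on both arrays, is left out.

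Of the 17 member probes with a ratio, 2 were over 1.5-fold higher in anti-miR-19b cells (MIR17HG and a dim MXD3 probe), 3 were over 1.5-fold lower (MYCBP and the MXD1 and MXD3 probes near the floor) and 12 were within 1.5-fold. Over all 26186 probes the shares were 13.8% higher and 12.0% lower. Of the 11 bright member probes 1 was higher and 1 lower, where the shares over all bright probes were 2.41% and 1.05%. Of the 6 dim member probes 1 was higher and 2 lower, against 25.1% and 22.9% of all dim probes. The counts are small, and the members had been chosen with these values known. The median log2 ratio of the 11 bright member probes was 0.19, beside 0.03 for all bright probes, and 6 of the 11 were above 0 (54.5%, beside 53.9%). Taking genes by the mean of their probes, 1 of 9 was over 1.5-fold higher and 2 were over 1.5-fold lower, and the shares over all 17438 genes were 12.4% and 10.8%.

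**Figure D3:**
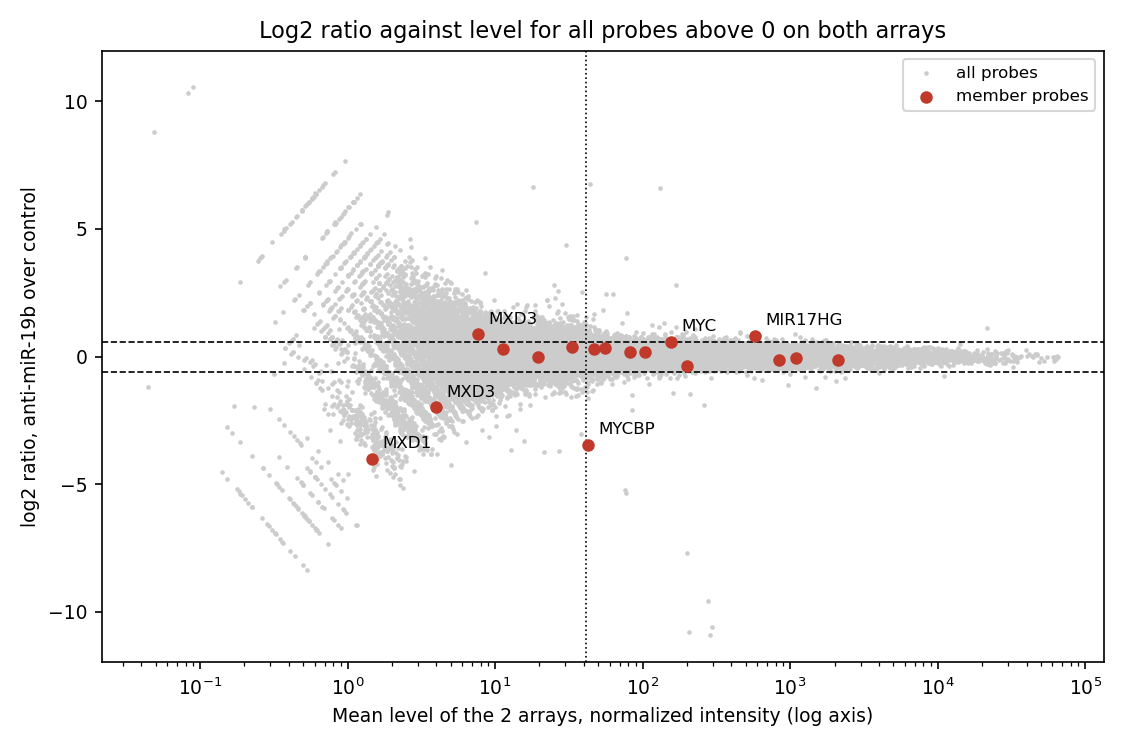
Log2 ratio (anti-miR-19b over control) against the mean level of the arrays (log axis) for all 26186 probes above 0 on both (grey) and the 17 member probes (red). Dashed lines mark 1.5-fold and the dotted line the median level, 41.4. MIR17HG lies at the upper edge of the cloud and MYCBP far below it at bright levels, whereas the outlying MXD1 and MXD3 probes lie inside the wide cloud of dim probes.

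The promoter of MIR17HG is shown because MYC is known to act on this gene through E-boxes. RefSeq sequence from 250 bases before to 50 bases after each annotated start was searched on both strands for CACGTG, the canonical E-box and its own reverse complement, and for the variant CACATG with its reverse complement CATGTG. The variant was added after the sequences had been seen. A window was found for 9 of the 10 genes (all but MYC), and 11 windows in all. The MIR17HG window (GRCh38.p14, chr13:91347437-91347736, plus strand) held no CACGTG and 1 CACATG, in capitals, which began 7 bases after the start.
MIR17HG: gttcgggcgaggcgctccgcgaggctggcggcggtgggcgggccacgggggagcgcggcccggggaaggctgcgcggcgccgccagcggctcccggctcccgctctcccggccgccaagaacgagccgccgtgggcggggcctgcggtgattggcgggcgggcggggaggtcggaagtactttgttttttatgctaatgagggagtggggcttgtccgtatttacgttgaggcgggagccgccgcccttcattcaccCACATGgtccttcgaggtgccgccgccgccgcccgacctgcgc

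CACGTG was found in the windows of 2 members, MNT and MXD4, and CACATG in those of MIR17HG and MYCL. Over all 35116 windows, 7.26% held CACGTG and 11.1% held CACATG. A match is a run of letters in this window and no evidence of binding, and E-boxes outside the windows were not searched. The stretches with CACGTG are printed for MNT (chr17:2401236-2401265, minus strand) and MXD4 (chr4:2262330-2262359, minus strand), the repressors of the network that carry it. That of ODC1 (chr2:10447990-10448053, minus strand), a classic MYC target, is printed as well. ODC1 had 2 windows, of which 1 held 2 such elements around its start and the other held 0.
MNT: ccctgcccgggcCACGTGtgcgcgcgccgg
MXD4: gggccgggccacCACGTGctgttgctaagc
ODC1: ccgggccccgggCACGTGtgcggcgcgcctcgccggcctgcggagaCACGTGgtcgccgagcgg

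The genes with a CACGTG window did not share a direction. MNT was lower (log2 ratio -0.15) and MXD4 higher (0.34 and 0.30) in anti-miR-19b cells. ODC1, the enzyme that starts polyamine synthesis, had 157 in control and 255 in anti-miR-19b cells at one probe (log2 ratio 0.70), and 8773 and 9478 at the other (0.11).

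Other MAX partners, the MAX-like protein MLX with its own partners, and the SIN3 corepressors were taken as 1 list. Their log2 ratios lay between -0.32 and 0.40 in the mean of bright probes. MGA, a MAX partner of a repressive complex, had a log2 ratio of 0.40 (87.1 in control and 115 in anti-miR-19b cells). MXI1, the remaining MXD family member, had -0.10 (1148 and 1070). MLX, the MAX-like partner of the glucose-sensing factors, had 0.16 (5850 and 6541), and MLXIPL, the glucose-responsive factor of liver, had -0.29 (333 and 272). Of the corepressors, SIN3A had probes at -0.12 and 0.58, the latter from 61.7 to 91.9, and SIN3B had -0.32 at its bright probe. In this list of 7 genes, 0 were over 1.5-fold higher and 0 lower by that mean. Over all 9990 genes with a bright probe the shares were 1.73% and 0.941%, so that a count of 0 among 7 genes sets the list apart from no other. SIN3B was over 1.5-fold lower in the mean of its probes, through one near the floor.

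The lists of cofactors and of regulators of MYC protein held 10 genes each with a bright probe, and 0 were over 1.5-fold higher or lower by the mean of bright probes, as few as those shares over all genes would give. Among the cofactors, MYCBP2, a ubiquitin ligase first found as a MYC binding protein, had the highest value (0.40, from 64.1 on the control array to 84.5), and RUVBL2, an ATPase of chromatin complexes, the lowest (-0.16, from 536 to 481). Among the genes that set the stability of MYC, FBXW7, which marks MYC for degradation, had 1003 and 802 at one probe (log2 ratio -0.32) and 707 and 578 at another (-0.29). AURKA, a mitotic kinase that protects MYCN from degradation, had 0.14 at its bright probe. SKP2, another ligase of MYC, gave -0.23 at its bright probe (11852 and 10140) and 1.55 at a dim one, so that its mean of 0.66 came from the dim probe. By the mean of bright probes FBXW7 had the lowest value of this list (-0.31), with both ratios below 0. Its remaining probe had negative intensities on both arrays and so no ratio. HUWE1, a ligase of MYC, had a lower single probe (-0.37, from 3089 to 2398) and another at 0.15.

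Reported targets of MYC were set beside these values. Of 34 reported MYC-induced genes 32 had a ratio, and 3 were over 1.5-fold higher (9.38%, beside 12.4% of all genes) and 0 lower (beside 10.8%), so that the count was no higher than the share over all genes. Their median log2 ratio was 0.09 beside 0.03 for all genes. Of the 3, CCND2 and CDC25A were dim and near the floor on the control array, and PRDX3, a mitochondrial peroxidase, was bright. PRDX3 had 105 and 190 at one probe (log2 ratio 0.85) and 2367 and 3439 at the other (0.54), so that both probes were higher with anti-miR-19b. Over bright probes alone, 18 of 29 genes were above 0 (62.1%, beside 53.6% of all genes), and the median was 0.10 beside 0.02. NOP58, a protein of small nucleolar RNA complexes, had 0.53 (602 to 869) and AMD1, of polyamine synthesis, 0.31 over 2 probes. The other end was held by SHMT2 (-0.29 over its bright probes), RRP9 (-0.19) and the glycolytic enzyme ENO1 (-0.17). The cap-binding factor EIF4E had 0.39 at its bright probe and -0.31 in the mean of all 3, and NCL, which encodes nucleolin, had -0.17 (5389 to 4806). ODC1 and PRDX3 are among the genes that the study had listed from these arrays, so that they are no independent evidence of a direction.

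Of 14 reported MYC-repressed genes 13 had a ratio, 0 were over 1.5-fold higher (beside 12.4% of all genes) and 1 lower (7.69%, beside 10.8%). These shares were not above those over all genes, and the median log2 ratio was 0.09. The one was NDRG1, known as a gene that MYC and MYCN repress (5009 in control and 3246 in anti-miR-19b cells, log2 ratio -0.63), which the study had likewise listed. The cell cycle inhibitor CDKN1A had -0.31 (652 to 526), whereas the related inhibitor CDKN1B had 0.35 (463 to 590) and CCN2, a matrix protein, 0.50 (253 to 358). Over bright probes 6 of 12 genes were above 0 and 6 below, and the median was 0.03.

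Other reported regulators of MIR17HG were near 0 or lower with anti-miR-19b. The E2F factors, which act on the MIR17HG promoter beside MYC, had log2 ratios of -0.07 (E2F1, 426 in control and 405 in anti-miR-19b cells), -0.06 (E2F2, 268 and 257) and -0.07 (E2F3, 1019 and 970). STAT3 had 0.00 and 0.20 at its 2 probes. CCND1, a cyclin of the G1 phase, had -0.41 (2423 and 1819). Of the 5 genes measured, 1 was above 0. Whether MYC or any of these factors bears on the MIR17HG value was not tested. MCM7, a replication helicase subunit whose gene hosts the paralogous miR-106b-25 cluster, had 0.26 (2444 and 2936), within 1.5-fold.

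Of 21 reported targets of the miR-17-92 cluster, 20 had a ratio, and their median log2 ratio was -0.05 beside 0.03 for all genes. Over bright probes, 7 of 16 were above 0 (43.75%, beside 53.6% of all genes), and the median was -0.05 beside 0.02. The list was made for the cluster as a whole and was not split by microRNA. Its medians therefore do not describe the targets of miR-19b alone. TP53INP1, a p53-inducible gene that acts in stress responses, had -0.54 and SOCS1, an inhibitor of cytokine signaling, -0.36. CCN2, which is also in the list of MYC-repressed genes, had the highest value over bright probes (0.50). PHLPP2, a phosphatase that acts on AKT, had 0.31, and HIF1A had 0.14 at one probe and 0.62 at the other. BCL2L11 had -1.46 at one bright probe and 0.01 at the other. It was the 1 gene of 16 over 1.5-fold lower in the mean of bright probes (6.25%, beside 0.941% of all genes), and 0 were higher (beside 1.73%). The study had likewise listed HIF1A and BCL2L11 from these arrays, so that they are no independent evidence of a direction. The 2 genes over 1.5-fold apart in the mean of all probes, MYLIP (-1.54) and ITGA5 (0.84), were both dim. These are 5% lower and 5% higher of the 20 genes, beside 10.8% and 12.4% of all genes.

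**Figure D4:**
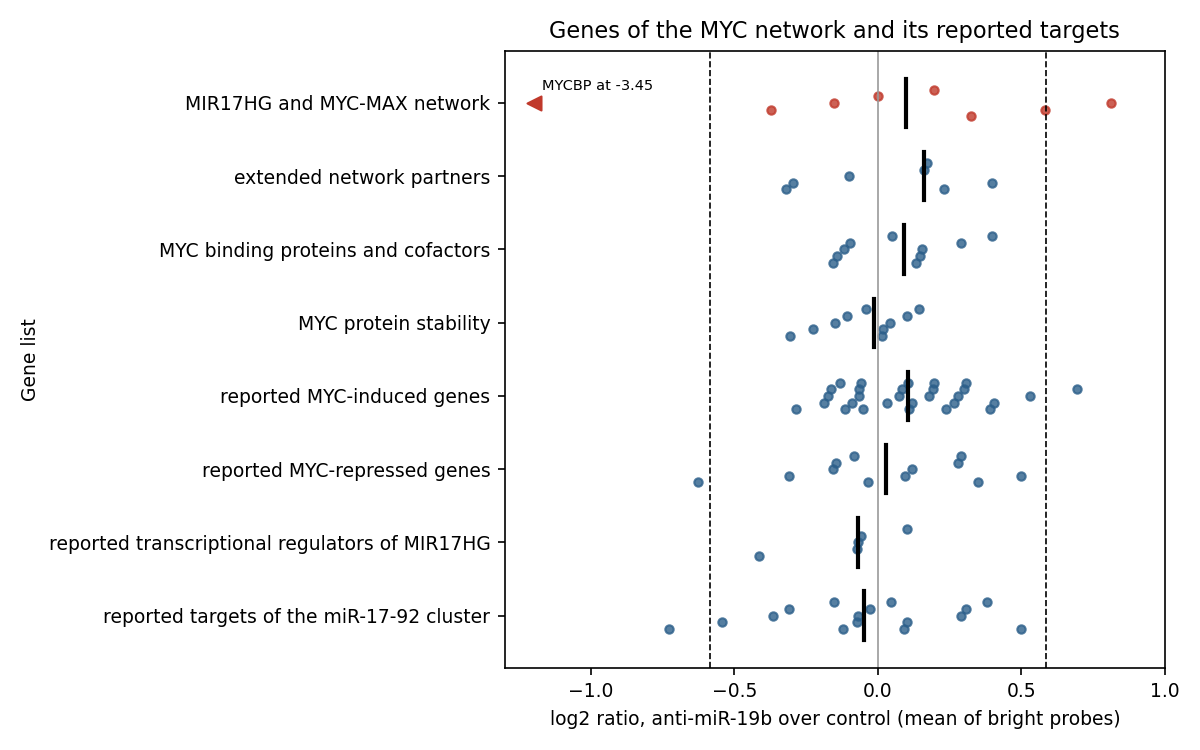
Log2 ratio (anti-miR-19b over control, mean of bright probes) of single genes in the network (red) and in 7 lists of its partners, regulators and targets (blue), with black bars for medians and dashed lines at 1.5-fold. The arrowhead at the left edge stands for MYCBP at -3.45, off the axis. MIR17HG at 0.81 is the only network gene beyond the upper line, MYC at 0.58 lies on it, and the medians of the 7 lists lie between -0.07 and 0.16.

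The probes with a gene symbol whose 2 log2 intensities came nearest to those of MIR17HG were LYPLA1 (424 in control and 723 in anti-miR-19b cells, at a distance of 0.087 log2 units), SNORD36C (418 and 715, 0.11) and LMAN1 (481 and 748, 0.15). Likeness over 2 arrays is a match of 2 numbers only. The second LMAN1 probe had a log2 ratio of 0.47.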

How the data were processed

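RNA of Hep3B cells was measured on Human OneArray, and the data hold 1 array per condition. Labelling, hybridization, scanning and normalization were done by the authors, who deposited 1 intensity for each probe, linear and with some values below 0. The sources used here name neither the background correction nor the normalization method, and the labels and the paper name different dyes (Cy5 and fluorescein). Conditions came from the sample titles, dose and time from the paper's methods.

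Of 29187 probes, 25053 carried 1 gene symbol and 4134 none in the platform annotation. Symbols were updated by gene identifier against RefSeq (GRCh38.p14, found for 24981 probes). The log2 ratio was computed for 26186 probes above 0 on both arrays, and 3001 were left out. Gene values are means over probes. Background shares were taken over all probes and over 10 equal bands of mean level. Named genes are all members, genes of the other lists over 1.5-fold at a bright probe, and up to 3 at either end of each list. Others were named after their values were seen. The members and lists were chosen with earlier results of these data known. No test was possible, and the number of arrays limits the precision. The ratio and the threshold were checked on simulated data, with set shifts at bright probes that were larger than those of MIR17HG and MYC. This checks the arithmetic alone. Python 3.11.15, numpy 2.4.6, pandas 2.3.3 and statsmodels 0.14.6 were used. Alternatives were median centring, quantile normalization, loess removal (fraction 0.3), an offset of 50, bright probes alone, the brightest probe and a 2-fold threshold.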

Additional observations from a re-analysis of the deposited data

How the results depend on the processing

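No paired analysis was possible because the data hold only 1 array per condition. Quantile normalization, centring of the ratios and a loess correction left the counts of members and of MYC targets over 1.5-fold as they were. With an offset of 50, with bright probes alone and at the brightest probe of each gene (where genes were counted in place of probes), 1 member was higher and 1 lower, in place of 2 and 3, and at 2-fold 0 were higher and 3 lower. MYC-induced genes over 1.5-fold higher numbered 0 with the offset, and 1 over bright probes or at the brightest probe, in place of 3. At 2-fold, 0 MYC-repressed genes were lower in place of 1. The log2 ratio of MYC lay between 0.44 and 0.58, under 1.5-fold in every setting run. The median log2 ratio over the member genes lay between -0.028 and 0.20. The ratios of MXD1 and MXD3 depended on dim probes: with an offset of 50 they were -0.13 and 0.03. The settings for single members other than MIR17HG and MYC were added after the data had been seen. Dim probes limit what these arrays show, since intensities near the floor give wide ratios, and 1 array per condition gives no replicate error.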

Other observations

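Genes with CACGTG in a promoter window were compared with the rest over bright probes, as a description. Of 9990 genes with a bright probe, 1032 had CACGTG in at least 1 window, and their median log2 ratio was 0.018, with 52.8% above 0. The 7131 genes with windows that lacked it had a median of 0.026, with 54.1% above 0. The 1827 others had no window in the table. Of the genes with CACGTG, 16 were higher with anti-miR-19b by more than 1.5-fold (1.55%) and 8 were lower (0.775%), beside 122 (1.71%) and 73 (1.02%) of those without it. Within the reported MYC-induced genes, 14 with CACGTG had a median of 0.13 and 11 without it 0.11, where the spread between genes was 0.25 and 0.19. CACGTG lay in 40.5% of the 37 windows of MYC-induced genes, which had been listed as known MYC targets, and in 5.56% of the 18 windows of MYC-repressed genes, beside 7.26% of all windows.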
